A study of Mus musculus with 2 samples.

Results

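The 10 genes described here encode the estrogen-related receptors (Esrra, Esrrb and Esrrg), the PGC-1 coactivators (Ppargc1a, Ppargc1b and Pprc1), the muscle regulator Perm1, the nuclear factors Nrf1 and Gabpa, and the mitochondrial transcription factor Tfam. They were chosen by name, as 10 of the 21887 genes that code for proteins on the mouse autosomes and sex chromosomes, and every peak over each gene span and 5000 bp on either side was collected. All 10 were found in the annotation. Nrf1 here is nuclear respiratory factor 1, not the gene of the Nfe2 family that shares the abbreviation. The measurement was ChIP-seq for H3R17me2a, histone H3 dimethylated asymmetrically at arginine 17, a modification written by the arginine methyltransferase CARM1, although the protocol names the antibody's target without the a. The 2 samples form 1 group, wild-type mouse heart at postnatal day 21, with no mutant, treated or control group, so no comparison between conditions was possible. The labels contradict each other on the material, since the source is called cardiac fibroblast while the tissue label and the protocol describe frozen heart that was homogenised whole. The sample titles carry the name carm1 although the genotype is wild type, and whether the samples came from separate animals is not stated. Each sample had 1 deposited peak list, called list 1 and list 2 here.

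Estrogen-related receptors are orphan nuclear receptors that bind DNA as monomers or dimers and activate genes of oxidative phosphorylation, the citric acid cycle and fatty acid oxidation. They have no known natural hormone and take much of their activity from PGC-1 coactivators, which do not bind DNA themselves and also work through NRF1, the ETS factor GABP and PPAR receptors. TFAM, whose gene NRF1 and GABP are known to activate, enters mitochondria and drives transcription and packaging of mitochondrial DNA. Heart has a dense mitochondrial network, and this circuit is known for the switch of the heart toward fatty acid use after birth.

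The lists cannot be taken as independent replicates. List 1 holds 21496 peaks and list 2 holds 38012, with medians of 26 and 15 ChIP reads at the summit. Of list 1 peaks 97.1% overlap list 2, and of list 2 peaks 52.2% overlap list 1. Among the 20978 overlapping pairs, 42.1% had the same summit base. Fold here is how far the ChIP signal at the summit exceeded its background, as the authors deposited it, and the reads were worked out from that ratio and its p-value. Where overlapping peaks had the same summit base, the reads differed by at most 2 in 80.5% of 8821 pairs, beside 26.4% for independent Poisson counts of the same size. At the 10 genes 32 of 108 pairs had the same summit, of which 84.4% differed by at most 2 reads. The samples were therefore counted as 1, with no mean or SD, and the numbers of reads cover counting error only. Among marker genes, 8 of 8 of cardiomyocytes and 0 of 8 of fibroblasts (Col1a1, Col1a2, Col3a1, Pdgfra, Tcf21, Dcn, Postn and Thy1) had a list 1 peak that overlaps list 2, as did 1 of 5 endothelial, 1 of 5 immune, 2 of 4 smooth muscle and 1 of 4 brown fat and liver markers. Over all protein-coding genes the share with such a peak was 48.7%. In whole tissue, more cells of a type and more signal per cell cannot be told apart.

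The mark was found at nearly all of the circuit, and most of its peaks lay inside the genes of PGC-1α and PGC-1β. A peak of list 1 was present at 10 of the 10 genes, beside 49.3% of all protein-coding genes, and a peak of list 2 at 9 of the 10, beside 59.3% of all. A shared peak, meaning a list 1 peak that overlaps a list 2 peak by at least 1 bp, was present at 9 of the 10 genes, beside 48.7% of all. Tfam was the gene without one. The 10 gene windows held 119 peaks of list 1 and 149 of list 2, of which 108 list 1 peaks were shared, and 81 of these 108 (75%) lay at Ppargc1a and Ppargc1b. Each list had a peak within 1000 bp of an end of the gene span at 9 of the 10 genes, against 38.6% of all genes. Of the 9 genes with a listed RefSeq start, 8 had a peak of each list within 1000 bp of a start, against 40.6% of the 17492 genes so listed. When peaks of both lists had to reach a −log10 p of 5, a shared peak was present at 9 genes (43% of all genes). An end was marked at 9 (33%) and a listed start at 8 (34.8%), and 74 shared peaks remained. Among the upper 50% of each list by fold, a shared peak was present at 7 genes (23.1% of all), an end was marked at 4 (12.3%) and a listed start at 5 (12.1%). Because the 10 genes were chosen by name with earlier results of these data known, these counts are descriptions beside the background and carry no test.

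The sequences just upstream of the start are shown for 5 genes with a start peak, to set CpG-rich starts beside the CpG-poor one of Ppargc1a. They are 250 bases each, 5′ to 3′ on the gene's own strand, ending at the base before the listed start, from RefSeq on GRCm38.p6 (the mm10 assembly). Capitals mark CCGGAAG on either strand, the letters of an ETS site of the kind GABP binds. Esrra is shown at chr19:6921809-6922058 on the minus strand, Ppargc1a at chr5:51567726-51567975 on the minus strand and Nrf1 at chr6:30047738-30047987 on the plus strand. Gabpa is shown at chr16:84834874-84835123 on the plus strand and Tfam at chr10:71238045-71238294 on the minus strand.
Esrra: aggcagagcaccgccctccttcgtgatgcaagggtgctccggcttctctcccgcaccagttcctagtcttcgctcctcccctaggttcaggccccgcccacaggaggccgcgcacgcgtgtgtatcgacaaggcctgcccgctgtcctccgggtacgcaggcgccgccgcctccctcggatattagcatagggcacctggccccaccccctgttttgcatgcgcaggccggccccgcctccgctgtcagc
Ppargc1a: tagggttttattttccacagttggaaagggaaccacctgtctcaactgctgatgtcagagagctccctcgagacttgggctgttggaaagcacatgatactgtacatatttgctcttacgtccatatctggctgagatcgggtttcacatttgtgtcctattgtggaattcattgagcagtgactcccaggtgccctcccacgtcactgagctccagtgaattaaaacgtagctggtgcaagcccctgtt
Nrf1: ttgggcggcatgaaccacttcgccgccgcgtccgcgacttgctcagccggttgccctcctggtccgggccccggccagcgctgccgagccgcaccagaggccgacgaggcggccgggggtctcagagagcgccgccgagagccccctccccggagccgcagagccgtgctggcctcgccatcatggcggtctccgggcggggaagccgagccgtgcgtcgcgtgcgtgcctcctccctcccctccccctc
Gabpa: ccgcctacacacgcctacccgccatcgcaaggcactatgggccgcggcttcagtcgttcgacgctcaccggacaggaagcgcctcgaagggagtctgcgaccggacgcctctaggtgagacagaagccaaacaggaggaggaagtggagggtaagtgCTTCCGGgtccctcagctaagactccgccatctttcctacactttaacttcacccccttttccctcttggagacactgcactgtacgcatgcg
Tfam: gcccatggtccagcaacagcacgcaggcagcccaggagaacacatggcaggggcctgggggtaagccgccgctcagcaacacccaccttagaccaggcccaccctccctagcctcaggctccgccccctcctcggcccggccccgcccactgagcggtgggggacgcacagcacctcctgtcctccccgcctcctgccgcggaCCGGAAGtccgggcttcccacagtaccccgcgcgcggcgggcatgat

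These promoters differed in base composition. Over the 300 bases from 250 before to 50 after the start, Nrf1 had 77.0% G or C and 43 CpG dinucleotides, Tfam 70.3% and 21, Esrra 66.0% and 25, and Gabpa 59.3% and 22. Ppargc1a and Perm1 were the CpG-poor ones among the main starts, with 5 and 4 CpG. The median over 21263 listed coding promoters was 13 CpG, with a median of 23 at the 8471 starts that had a peak of each list within 1000 bp and 5 at the other 12792. Ppargc1a, Perm1 and both Esrrb starts (7 CpG each) were thus marked although their CpG counts fell below the lower quartile of marked starts, 16, as did those of Pprc1 (14) and the first Esrrg start (15). CCGGAAG was found at Gabpa and at Tfam, in 2 of the 14 listed promoters of these genes, and in 11.6% of all listed promoters. Searched on both strands, TNAAGGTCA, the response element of estrogen-related receptors, and the palindrome that NRF1 binds occurred in 0 of the 14, beside 1.03% and 8.57% of all. A match is a match of letters only.

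**Figure D1:**
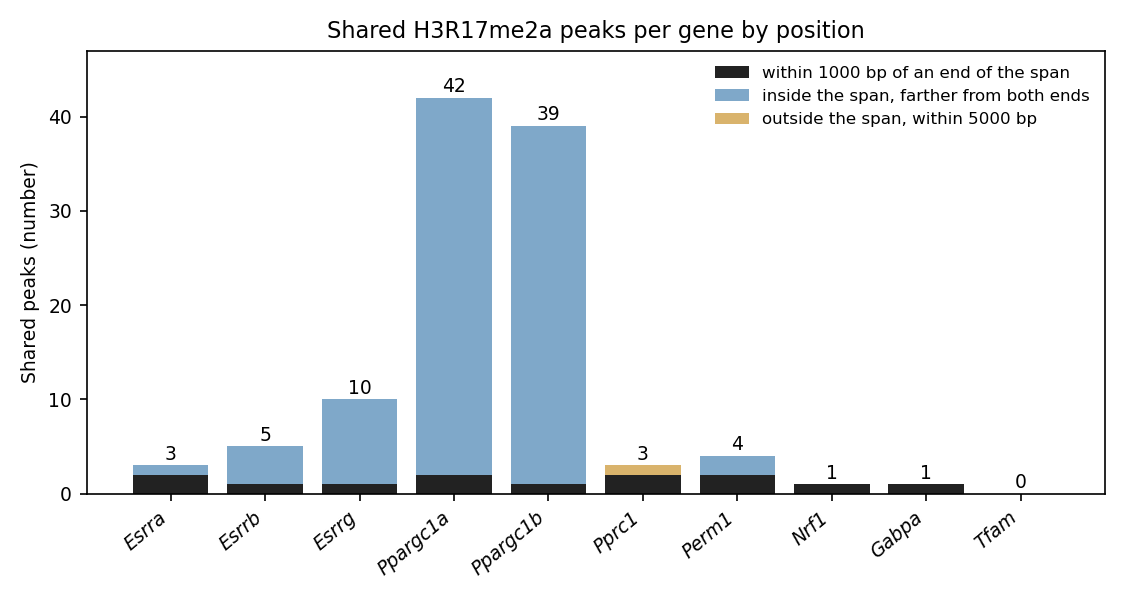
Number of shared peaks over each of the 10 gene windows, split by position into span end (within 1000 bp of an end), intragenic and flank. Ppargc1a (42) and Ppargc1b (39) stand far above the other 8 genes, and nearly all of their shared peaks are intragenic.

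Among the receptors, Esrra, the form known as the main partner of PGC-1α in heart, was marked compactly at both ends. The window of its span, chr19:6910977-6922048 on the minus strand, held 3 peaks of each list, and the shared peaks covered 14.2% of the span. The start peak of list 1, at chr19:6920934-6922513, was 1580 bp wide with a fold enrichment of 8.72 and 63 ChIP reads at its summit. In list 2 that peak was 2356 bp wide with a fold of 9.48 and 64 reads, and it also took in a separate small intragenic peak of list 1 with a fold of 4.27 and 10 reads. At the other end, the peak at chr19:6909346-6910451 had a fold of 6.75 and 95 reads in list 1, and 4.36 and 98 reads in list 2. Both end peaks lie among other genes. The start peak reaches the 3′ end of Catsperz, 378 bp from Esrra, and the other covers the starts of Trmt112 (at 6909698, a methyltransferase cofactor) and Prdx5 (at 6910106, a peroxiredoxin found in mitochondria). Which of these genes a peak belongs to cannot be told apart from its position.

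Esrrb, the receptor best known from stem cells and inner ear, had 5 shared peaks over its 160512 bp span at chr12:86361117-86521628 on the plus strand, which covered 1.42% of it. The peak at the first start, chr12:86360682-86361844, had a fold of 4.81 and 124 reads in list 1, and 5.97 and 124 reads in list 2. The peak at its second listed start, chr12:86421400-86421960, was weaker, with a fold of 3.86 and 26 reads in list 1, and 2.74 and 25 reads in list 2. Both starts of Esrrb were therefore marked, although the list 2 peak at the second had a −log10 p of 4.16, under the stricter threshold of 5. The highest fold at the gene was inside it, at chr12:86371560-86372002, and the lists gave different sizes for it. It had a fold of 5.84 with 69 reads in list 1 and 16.0 with 50 reads in list 2, although both lists placed its summit at the same base.

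Esrrg, the receptor known for high levels in heart and other oxidative tissue, carried 10 shared peaks over a span of 606376 bp at chr1:187608510-188214885 on the plus strand. List 1 had 11 peaks there and list 2 had 24, of which 9 overlapped list 1, and the others had 6 to 12 reads apart from one with 64. The peak at the first start, chr1:187608488-187609664, had a fold of 4.10 and 40 reads in list 1, and 6.74 and 42 reads in list 2. The strongest by reads was intragenic, at chr1:187938575-187939556, with a fold of 12.9 and 141 reads in list 1, and 11.95 and 153 reads in list 2. Another, at chr1:187910667-187911578, had a fold of 6.94 and 103 reads in list 1, and 6.53 and 104 reads in list 2. The peak at chr1:187650970-187651480, within 1000 bp of 2 further listed starts, had a fold of 7.67 in list 1 and 4.87 in list 2, with 22 reads in each. The remaining start, listed at 187997827, had a peak in list 2 alone, at chr1:187997557-187998049, with a fold of 3.69 and 64 reads. Esrrg thus had a marked first start, with higher folds and more reads inside the gene in both lists, and shared peaks covered 1.04% of the span.

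**Figure D2:**
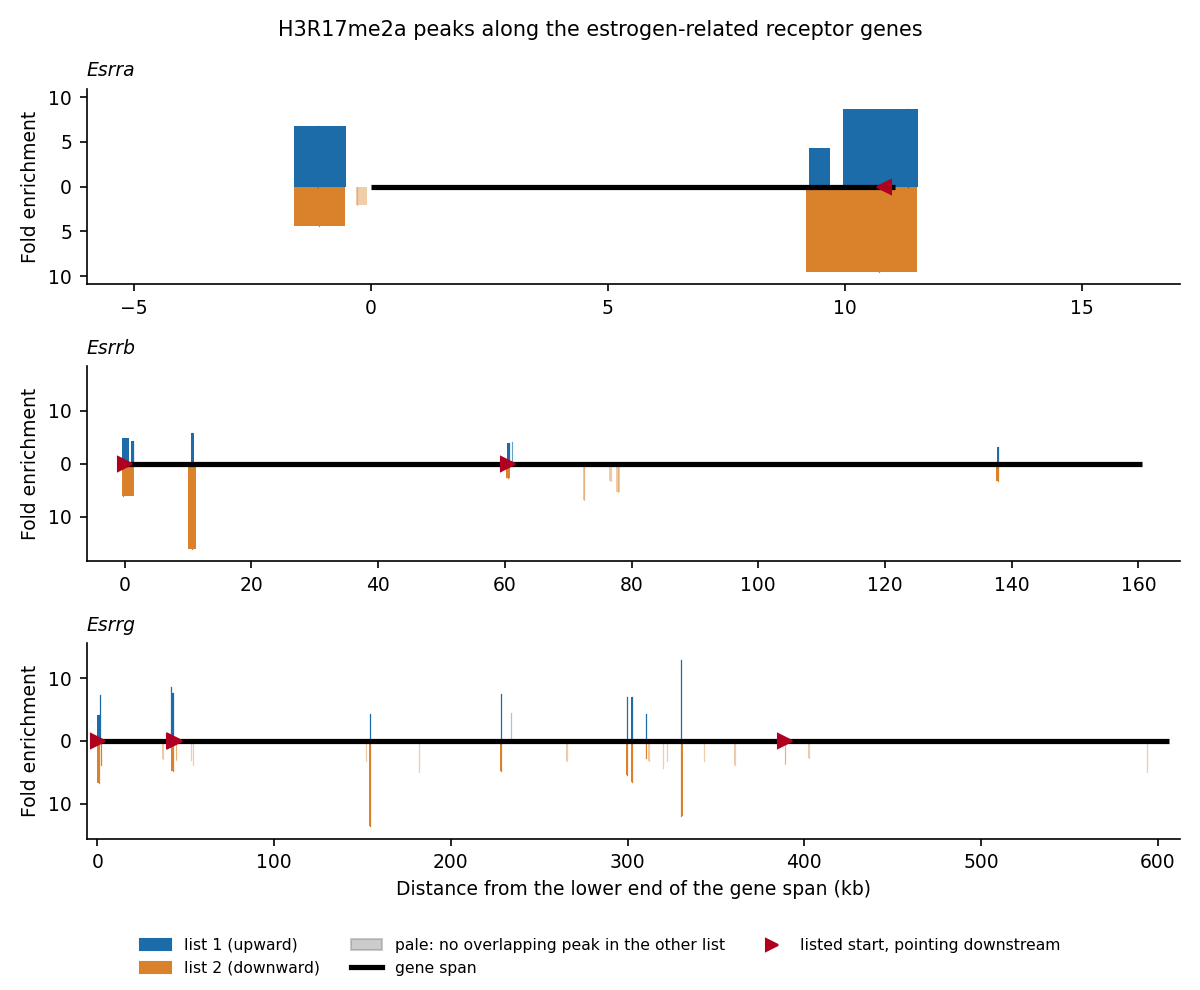
Peaks over the 3 receptor genes, by distance from the lower end of the gene span (kb, horizontal) and fold enrichment at the summit (vertical), with each list drawn separately. Esrra shows peaks at both of its ends, Esrrb a single high list 2 peak (16.0) near its start, and Esrrg peaks along much of a long span, the highest ones (12.9 in list 1 and 13.5 in list 2) inside the gene.

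Ppargc1a, which encodes PGC-1α, the coactivator induced by cold, fasting and exercise, ranked 9 of 21887 genes by shared peaks, with 42. Its span is chr5:51454249-52115853 on the minus strand, 661605 bp, because the annotation reaches far upstream of the listed start at 51567725. Of its shared peaks 40 were intragenic and 2 were at span ends. Their fold ranged over 2.38 to 15.9 in list 1 with a median of 6.41, and their median width was 680.5 bp with 19 reads at the summit. Few genes of such length had as many. Among the 990 genes with spans of 200000 bp or more, the median was 1 shared peak and the upper decile began at 8, and 7.88% had 10 or more, as against 0.886% of all genes. The genes with the most were Ryr2, the calcium release channel, with 166, and Ttn, the sarcomere spring, with 130.

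The peaks of Ppargc1a were crowded into its downstream part. The 113477 bp from the listed start to the lower end held 28 shared peaks, or 24.7 per 100 kb, whereas the 548128 bp upstream of the start held 12, or 2.19 per 100 kb. In list 2 alone those stretches held 36 and 19 peaks. The densest run was 16 shared peaks within 39048 bp, at chr5:51447047-51486094, at the 3′ end of the gene. It began with the widest peak at any of the 10 genes, chr5:51447047-51455266 in list 1, 8220 bp wide with a fold of 7.80 and 38 reads. The same domain was 16610 bp wide in list 2, at chr5:51438684-51455293, with a fold of 5.02, 39 reads and the same summit base. It ranked 6 by width among the 21496 peaks of list 1 and 2 among the 38012 of list 2. Most of the domain lies beyond the end of the annotated gene.

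The start of Ppargc1a was marked less strongly than places inside and upstream of it. The start peak, chr5:51567544-51568789, had its summit 170 bp upstream of the start, with a fold of 5.34 and 47 reads in list 1, and 4.21 and 46 reads in list 2. The highest fold in list 1 was 15.9 with 31 reads, at chr5:51457347-51458473, an intragenic peak near the 3′ end. There list 2 had a wider peak at chr5:51455543-51458461 with a fold of 8.74 and 27 reads. By reads the strongest were a pair upstream of the start. One, with its summit 28080 bp upstream, at chr5:51595272-51596049, had a fold of 7.73 and 138 reads in list 1, and 12.2 and 136 reads in list 2. The other, with its summit 23962 bp upstream, at chr5:51591124-51592570, had a fold of 11.6 and 103 reads in list 1, and 9.42 and 105 reads in list 2. The upper span end, where the longest annotated transcripts begin, also had a peak at chr5:52115896-52116550, with a fold of 3.72 and 25 reads in list 1, and 4.42 and 27 reads in list 2.

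Ppargc1b encodes PGC-1β, the related coactivator that is less responsive to stimuli and is known to maintain basal mitochondrial capacity. It had 39 shared peaks over chr18:61291445-61400756, a span of 109312 bp, and 38 of them were intragenic. It ranked 11 by shared peaks, tied with 2 other genes, and the peaks covered 26.2% of its span, the third highest cover among the 2429 genes with spans of 100 kb or more. For Ppargc1a the cover was 4.49%. A run of 25 shared peaks filled 41478 bp, at chr18:61329159-61370636, and the median gap between neighbouring shared peaks of the gene was 1009 bp, against 2456 bp at Ppargc1a. The median fold of its shared peaks was 5.0 and the median width 504 bp, with 17 reads at the summit.

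The peak with the most reads at Ppargc1b lay at the upper span end. Both lists called it at the same bounds, chr18:61397380-61400697, 3318 bp wide, with a fold of 5.07 and 146 reads in list 1, and 3.45 and 166 reads in list 2. It overlaps Mir378a, the microRNA gene hosted by Ppargc1b and known to act on energy metabolism, and the noncoding gene Gm52354. The lists differed at chr18:61320164-61324065, where list 2 called a single 3902 bp peak with a fold of 24.1 and 70 reads, rank 39 by fold in that list. List 1 had a pair of peaks there, with folds of 4.16 and 5.0 and with 19 and 14 reads. The annotated span of the neighbouring gene Pde6a ends 1695 bp from the lower end of Ppargc1b. No listed start was available for Ppargc1b, so its start is not described.

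**Figure D3:**
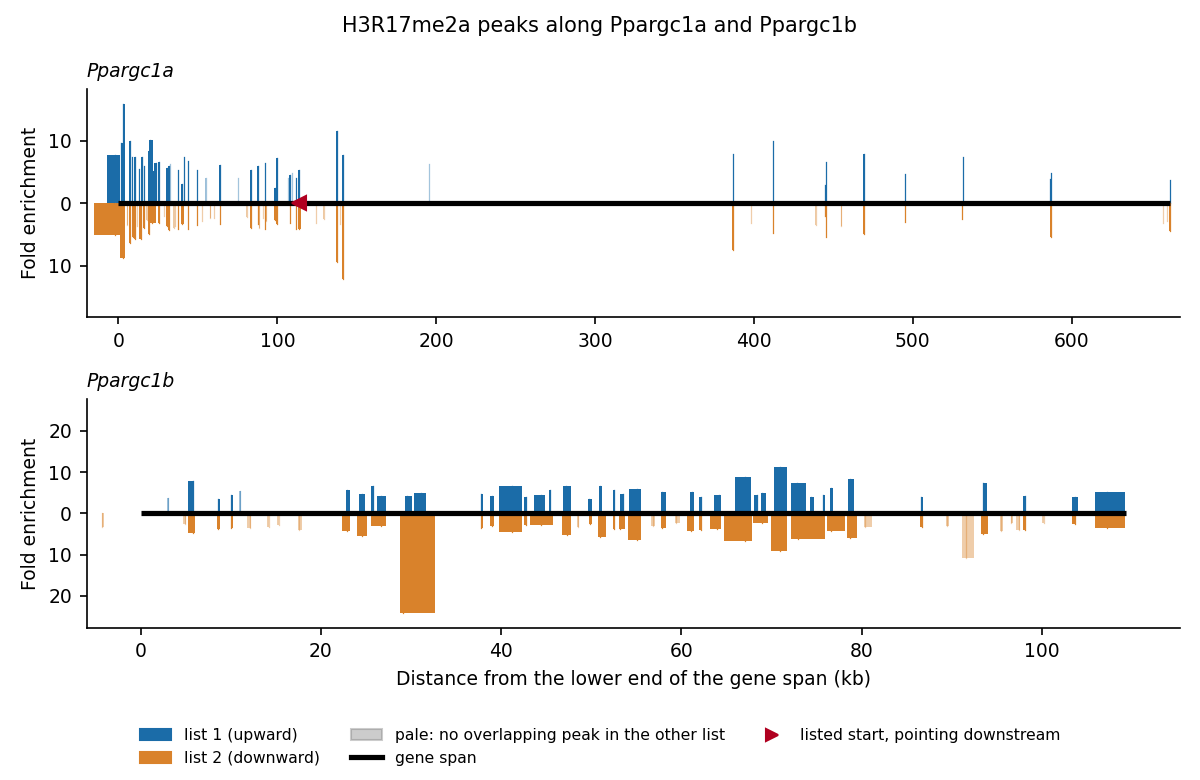
Peaks over Ppargc1a and Ppargc1b, by distance from the lower end of the gene span (kb, horizontal) and fold enrichment at the summit (vertical), for each list. At Ppargc1a the peaks crowd into the downstream part at the left and thin out upstream, and at Ppargc1b they are spread over most of the span.

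Pprc1, the third coactivator of the family, known for its link to cell growth, stood apart from the other two with a compact pattern. Its span, chr19:46056526-46072909 on the plus strand, held 0 intragenic peaks in both lists, and 2 shared peaks lay within 1000 bp of its start, one of them just before the span. The main one, chr19:46056606-46057343, had a fold of 9.48 and 60 reads in list 1. List 2 joined it to the small peak before it (chr19:46056218-46056401, fold 4.20 and 23 reads in list 1) as 1 peak with a fold of 5.44 and 60 reads. The third shared peak of its window, at chr19:46075832-46076319, had a fold of 2.16 and 176 reads in list 1, and 4.55 and 175 reads in list 2. It lies at the start of the neighbouring gene Nolc1, a nucleolar protein gene, and is the 1 shared peak of the 10 genes that lies in a flank.

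Perm1, a muscle regulator induced by PGC-1 coactivators and estrogen-related receptors, had 4 shared peaks, and 18.7% of its span at chr4:156203262-156221307 was covered. One domain accounted for most of it. It spans the listed start at 156215927, and was 2894 bp wide in list 1 (chr4:156215700-156218593, fold 6.28, 68 reads) and 3030 bp wide in list 2 (fold 6.15, 68 reads). Of the other 3, a small intragenic peak had 12 reads in each list. The peak at the upper end, at chr4:156221689-156222370, had a fold of 6.12 in list 1 and 4.26 in list 2, with 17 reads in each, and Plekhn1 ends 149 bp from the Perm1 end. The peak at the lower end, at chr4:156203083-156203546, overlaps the noncoding gene AW011738 and had many reads over a high background, with a fold of 1.67 and 111 reads in list 1, and 2.19 and 115 reads in list 2.

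The factors that bind promoters of respiratory genes were each marked once, at the start. Nrf1, at chr6:30047985-30153458 on the plus strand, had a 940 bp peak at chr6:30047673-30048612 whose summit was 4 bp from the first listed start. Its fold was 4.42 with 52 reads in list 1, and 2.71 with 51 reads in list 2. The rest of its 105474 bp, with a further listed start at 30076321, held no peak in either list. Ppargc1b, with a span of nearly that length, had 39 shared peaks.

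Gabpa, the DNA-binding subunit of GABP, at chr16:84834891-84863783 on the plus strand, had a 2146 bp peak at chr16:84834259-84836404. Its fold was 6.28 in list 1 and 3.28 in list 2, with 94 reads in each. The annotated span of Atp5j, a subunit of mitochondrial ATP synthase transcribed in the other direction, ends inside the same peak, 966 bp from the lower end of Gabpa, so the peak stands over both starts. Its CCGGAAG match, on the reverse strand, lies at position −93 from the listed start and lies under the peak in both lists.

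Tfam, at chr10:71225468-71238328 on the minus strand, had the weakest evidence of the 10. A 227 bp peak of list 1, chr10:71237878-71238104, had its summit 27 bp upstream of the start, with a fold of 4.0 and 19 reads, and list 2 had none in the window. It was also the narrowest of the start peaks of list 1 apart from the small Pprc1 one. Its CCGGAAG match, at position −47, lies under that peak. The list 2 call set reached lower significance overall (lowest −log10 p of 2.01, against 5.0 in list 1), and still did not contain it.

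**Figure D4:**
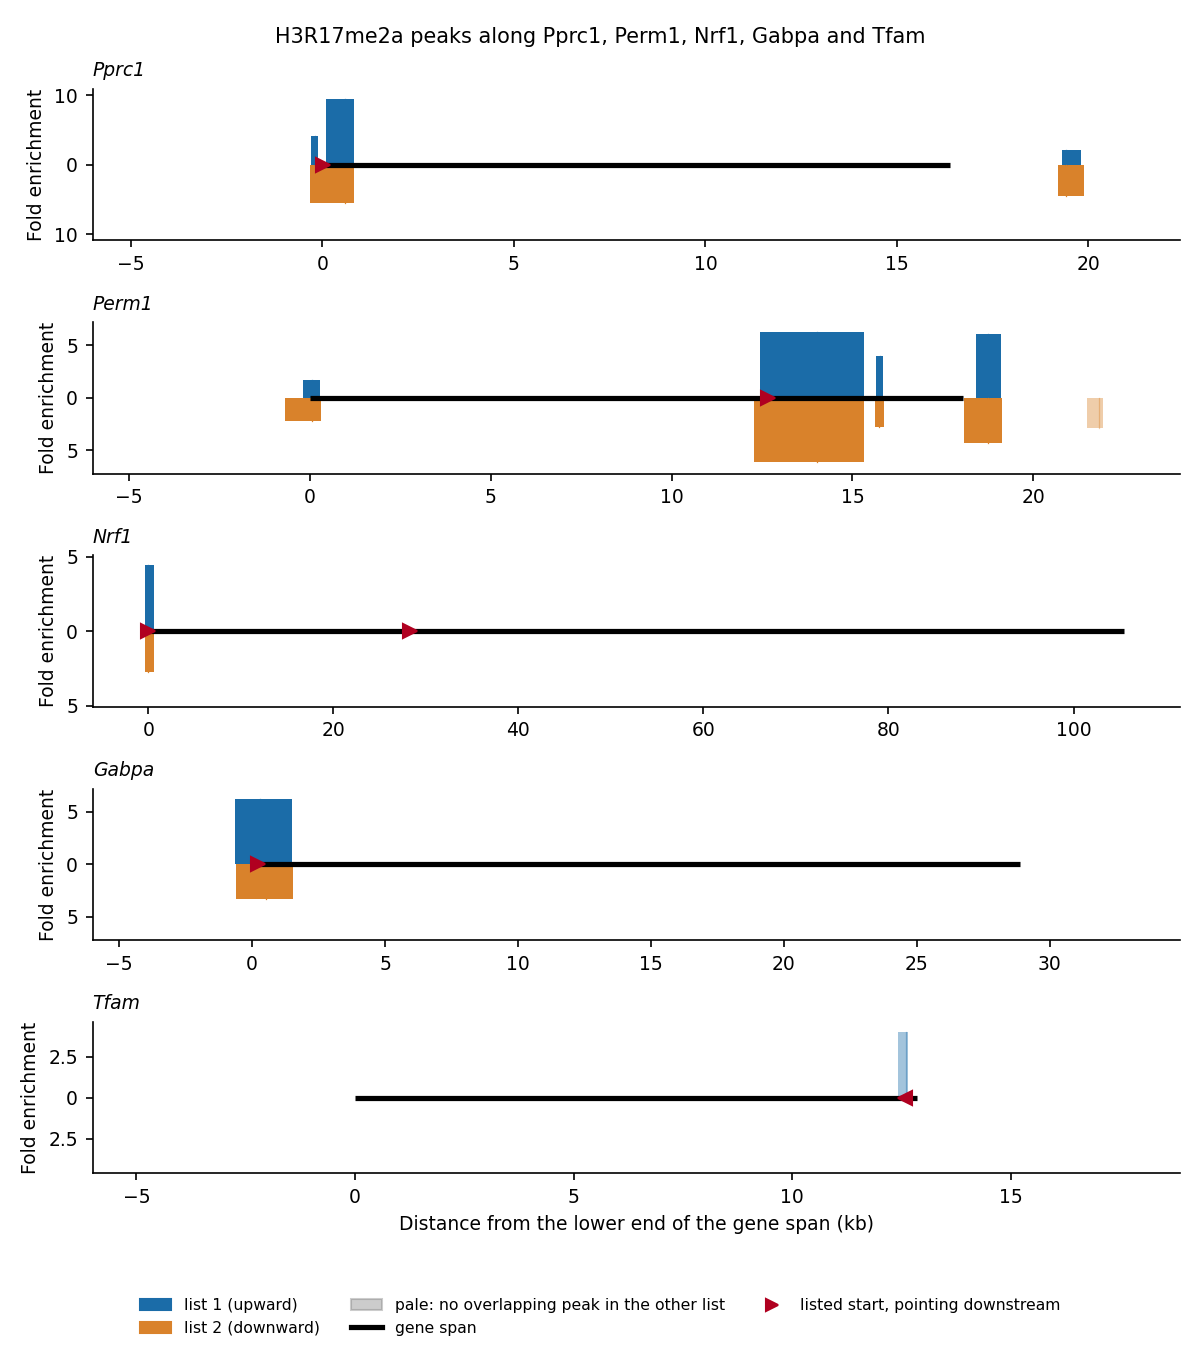
Peaks over Pprc1, Perm1, Nrf1, Gabpa and Tfam, by distance from the lower end of the gene span (kb, horizontal) and fold enrichment at the summit (vertical), for each list. Pprc1 has a few at its start and beyond its end. Nrf1 and Gabpa show 1 start peak in each list, Tfam 1 small peak in list 1 alone (fold 4.0), and Perm1 a wide domain with narrower peaks on both sides (4 peaks in list 1 and 5 in list 2).

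Over the 10 genes together, most shared peaks were intragenic, meaning over the annotated span and away from its ends. A listed start can lie inside the span, so the start peak of Ppargc1a and the main Perm1 domain count as intragenic. So do the shared peaks inside the Ppargc1a span that lie upstream of its listed start. The intragenic share is therefore not a share downstream of starts. Of the 108 shared peaks, 94 (87.0%) were intragenic, 13 at a span end and 1 in a flank, whereas over all genes 41.7% of 22034 gene and peak pairs were intragenic, 44.1% at an end and 14.2% in a flank. That share rests on the PGC-1 pair. Without Ppargc1a and Ppargc1b, 16 of 27 (59.3%) were intragenic and 10 were at an end. Of those 16, 9 were at Esrrg and 4 at Esrrb, which also have long spans. The share over all genes was not matched for span length. The shared peaks had a median width of 589.5 bp and a median fold of 5.67, beside 477 bp and 4.85 over all genes, and a median of 18 reads at the summit, beside 28. Peaks of 2000 bp or more made up 5 of the 108 (4.63%), beside 1.82% over all genes, and they were the Ppargc1a 3′ domain, a pair at Ppargc1b (3318 and 2512 bp), the Perm1 domain and the Gabpa start peak. The median was 19 reads at Ppargc1a, 17 at Ppargc1b and 40 over the shared peaks of the other genes. Of the 57 list 2 peaks at the 10 genes that no list 1 peak overlapped, 48 had a −log10 p under 5, and the median over the 57 was 10 reads.

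Span length alone does not order the 10 genes by number of peaks. Esrrg is almost as long as Ppargc1a and had 10 shared peaks against 42, and Nrf1 is almost as long as Ppargc1b and had 1 against 39. Among the 4 genes shorter than 20 kb, Perm1 had 4, Esrra 3, Pprc1 3 and Tfam 0, and 40% of all genes of that length had at least 1. For spans of 20 to 50 kb, the class of Gabpa, that background was 56.6%, and it was 63% for 50 to 200 kb and 56.1% for longer ones. Of all genes, 3.29% had 5 or more shared peaks. Esrrb had 5, and Esrrg, Ppargc1a and Ppargc1b had more.

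**Figure D5:**
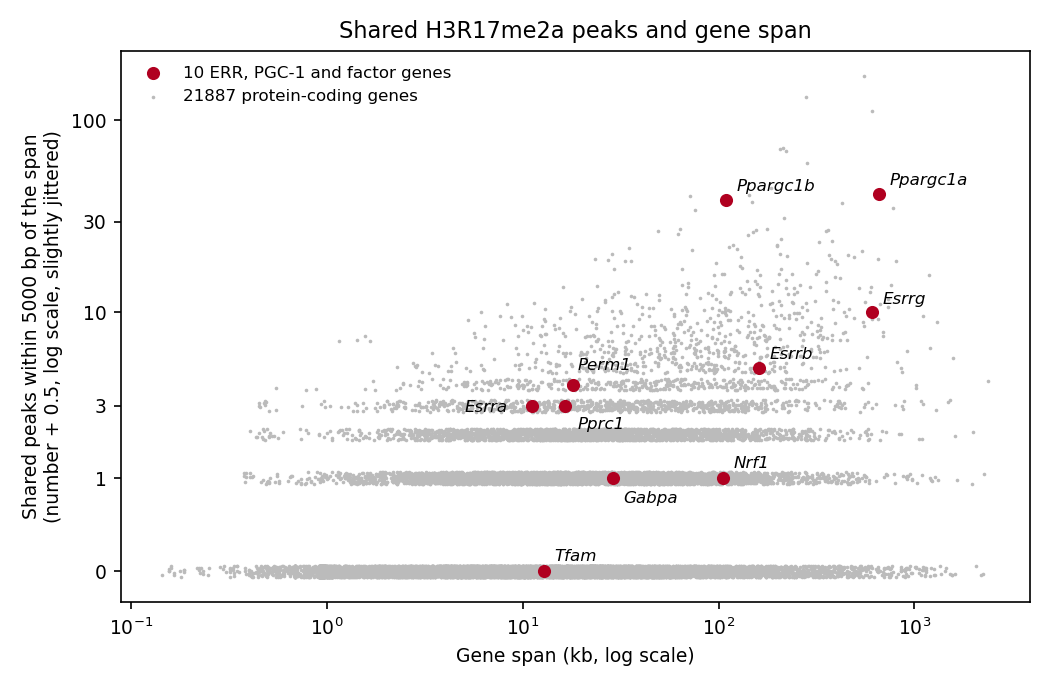
Number of shared peaks (log axis, after a small constant was added) against the length of the gene span (log axis, kb), with the 10 genes labelled over all protein-coding genes. Ppargc1a (42) and Ppargc1b (39) lie far above most genes of like length. Some long genes had more, such as Ryr2 (166) and Cacna1c (111). Esrrg (10) is also high. Nrf1 (1) and Tfam (0) lie at the medians of their classes of span length, which are 1 and 0.

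Genes that work with these regulators were also widely marked. Of 18 partners and regulators of the receptors and coactivators, 16 had a shared peak (48.7% of all genes had one) and 15 were marked at an end (38.6% of all). Ranked over both lists, the highest folds among them were at Nrip1, a corepressor of the receptors (11.0 in list 1 and 15.2 in list 2), Ppara, the fatty acid receptor (6.39 and 11.3), and Nfe2l2, the antioxidant factor NRF2 (9.67 and 5.81). Kat2a, an acetyltransferase that acts on PGC-1α, and Prkaa1, a catalytic subunit of AMP-activated kinase with 4 peaks in list 2 alone, had none. Prkaa2, the other catalytic subunit, named here after its values were seen, had 7 shared peaks, with a strongest fold of 11.7 in list 1 and 5.51 in list 2. Of 15 known receptor targets in heart, 14 were marked at an end (38.6% of all genes). A shared peak was present at 14 of the 15 (48.7% of all), with a median of 4. Pdk4, the kinase that turns off pyruvate dehydrogenase, had 11 (strongest fold 13.3 in list 1 and 14.5 in list 2), Ckmt2, the mitochondrial creatine kinase, reached 18.0 and 10.3, and Mfn2, the mitofusin, 13.0 and 9.24. Maob had none.

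Of 14 genes of mitochondrial DNA maintenance and transcription, the processes in which TFAM acts, 10 had a shared peak (48.7% of all genes had one) and 9 were marked at an end (38.6% of all), with a median of 1 peak. Ranked in the same way, the strongest were at Mgme1, a mitochondrial exonuclease (13.4 in list 1 and 14.3 in list 2), Polrmt, the mitochondrial RNA polymerase that TFAM recruits (8.64 and 7.77), and Tfb1m, a ribosomal RNA methyltransferase (7.40 and 8.78). Mterf4 and Ssbp1 were among the 4 without a shared peak. These lists hold well-known genes and were set with earlier results of these data known.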

How the data were processed

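H3R17me2a ChIP-seq of 2 samples of wild-type mouse heart was used, 1 group with no control, each with a headerless narrow peak list. FastQC, Bowtie2 and mm10 are named in the submitters' processing notes. The peak-calling program, its control and its filters were not given in the sources used here. The deposited fold is a linear ratio of signal to background at the summit. The deposited −log10 p-values and q-values and the deposited score, which follows the p-value, are the authors' own values, used to describe or filter peaks within a list. Total library depth is unknown.

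Reads at each summit were recovered as the whole number that gives both the fold, taken as (reads + 1) over (background + 1), and the p-value, taken as a Poisson upper tail. They matched p within 0.001 (−log10) in 99.9% of peaks of each list, with ChIP reads multiplied by 0.618 in list 2. With p-values exchanged between peaks, 1.5% and 2.7% matched. The recovery was tested on simulated data built from the same formula, so that test cannot show whether the formula holds for the deposited values. Factors of 0.5 in list 1 and 0.309 in list 2 matched as well as 1 and 0.618 in 200 scanned peaks per list. The larger factors were taken, so the absolute numbers of reads rest on that choice. The factor of 0.618 and the near-equal reads are the reason why the samples are counted as 1.

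Gene spans came from RefSeq GRCm38.p6, the same assembly as mm10, extended by 5000 bp. Starts, strands and promoters came from the RefSeq promoter table, which has no entry for Ppargc1b. A peak was at an end within 1000 bp of it. Exons were not used here. Members, gene lists and motifs were chosen with earlier results of these data known. Every one of the 10 genes is named. Of each pathway list, up to 3 genes with the lowest sum of ranks by fold of their strongest shared peak and up to 2 without one, in alphabetical order, are named, with marker genes as counts and neighbours within 2000 bp. No test was made. Alternatives covered stricter thresholds, overlaps, windows and each list alone. Python 3.11.15, pandas 2.3.3, numpy 2.4.6, scipy 1.17.1 and matplotlib 3.10.9 were used.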

Additional observations from a re-analysis of the deposited data

How the results depend on the processing

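Of the 10 genes, 7 to 9 had a shared peak over the alternatives that use both lists. Keeping the upper 50% of each list by fold left 51 shared peaks, 4 genes marked at an end (12.3% of all genes) and 5 at a listed start (12.1%), with no shared peak at Nrf1, Gabpa or Tfam; fewer peaks enter by construction. Under that setting Ppargc1a ranked 10 and Ppargc1b 17 by shared peaks. Requiring a −log10 p of 5 left 74 shared peaks, with 29 at Ppargc1a (rank 8) and 23 at Ppargc1b (rank 14). Every list 1 peak already reached that value, so the filter acted on list 2. A 50% reciprocal overlap also left 74, with 28 at Ppargc1a and 27 at Ppargc1b. An alternative chosen after seeing the data, without Ppargc1a and Ppargc1b, left 27 shared peaks with 59.3% intragenic. With 1 list alone, the number of peaks was 119 (list 1) and 149 (list 2), the genes with a peak were 10 and 9, those marked at an end 10 and 9 and at a listed start 9 and 8, the intragenic share 87.4% and 89.3%, and the median width 522 and 528 bp. No paired analysis was possible because there is 1 group. Total library depth is unknown, so what it limits could not be assessed, and why the 19-read peak at Tfam is in list 1 alone was not tested.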
